A study of Mus musculus with 23 samples.

Results

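The genes described here encode translation initiation and elongation factors. They were chosen by name: every gene symbol in the files that begins with Eif1, Eif2, Eif3, Eif4, Eif5, Eif6, Eef1 or Eef2, without the eIF2 kinases (names beginning Eif2ak) and without the sex-linked *Eif2s3x* and *Eif2s3y*. The rule gave 57 of 18512 symbols, and 56 of the 57 had enough counts to be tested. *Eef1a2* was the member that was not tested. *Eif3j1* and *Eif3j2* had the same count in all 23 mice, so the 56 tested genes hold 55 distinct measurements.

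The counts come from RNA-seq of the head of the pancreas of C57BL/6 mice of both sexes that were 6 to 8 weeks of age. Caerulein, an agonist of the cholecystokinin receptor that injures the exocrine pancreas at high dose, was given into the peritoneum at 50 µg/kg, 8 times a day at hourly intervals, on 2 consecutive days. The libraries analysed came from 8 non-injured mice (baseline, 4 females and 4 males), from 8 mice at day 7 (4 females and 4 males) and from 7 mice at day 14 (3 females and 4 males). A further day 14 female was left out by the authors because its reads mapped poorly. Whole tissue was sequenced after depletion of ribosomal RNA, with 1 library per mouse, and the days are counted from a day after the last injection. The mice are separate animals at each time point, so no mouse was followed over time.

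A ribosome begins translation when eIF2 delivers the initiator tRNA to the small ribosomal subunit, eIF3 and the eIF1 proteins hold that subunit in a form that can scan, and the eIF4 proteins bring in the capped mRNA and unwind it. Elongation then needs eEF1A, which carries aminoacyl-tRNA to the ribosome, the eEF1B subunits, which reload eEF1A with GTP, and eEF2, which moves the ribosome along by a codon. The acinar cell of the pancreas makes and secretes digestive enzymes at a very high rate, and its translation is regulated at eIF2, at the cap-binding complex and at eEF2.

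Total counts ranged from 7059890 to 9567446 per mouse. The pancreas label was checked against 12 acinar markers, most of them digestive enzyme genes. They took 45.6% to 52.2% of all counts in the baseline mice, 38.6% to 43.7% in the day 7 mice and 43.1% to 47.7% in the day 14 mice. Libraries differed in composition by group. The TMM factor of edgeR, which sets the effective size of a library from the bulk of its genes, was 0.77 to 1 in the baseline group, 1.05 to 1.4 in the day 7 group and 0.934 to 1.03 in the day 14 group, so the baseline and day 7 ranges did not overlap. The library with the factor of 1.4, that of mouse 10 at day 7, stood highest. Leaving this mouse out left the count of members called at day 7 at 19. In the authors' mapping statistics, every day 14 library kept had fewer reads in untranslated exons upstream of coding sequence, as a share, than every other library. The share in coding exons was higher, again without overlap. Every day 7 library had a lower share of duplicate reads than every baseline library. The RNA integrity numbers listed overlapped between groups and tended to be lowest at day 14. These differences go with the time point, and their part in the results was not tested. Values below are normalized counts, that is, counts divided by the TMM effective library size and multiplied by its mean over the mice.

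At day 7, 15 of the 56 tested members were lower than at baseline and 4 were higher (edgeR's quasi-likelihood test, Benjamini-Hochberg adjusted p of at most 0.05). The 15 lower members are 26.8% of those tested, where 9.7% of all 12195 tested genes were called lower. The 4 higher members are 7.14%, where 8.86% of all tested genes were called higher. The members that fell were led by *Eef2*, *Eif3f*, *Eef1a1* and *Eif3h*, and those that rose were *Eif1a*, *Eif2s1*, *Eif4a2* and *Eef1d*. *Eef2* alone also passed a fold change of 1.5 (1 of 56 members, beside 1.31% of all tested genes lower by that rule and 3.82% higher). The median log2 fold change of the members was -0.051 and that of all tested genes was 0.022. At day 14 against baseline 1 member, *Eef2*, was lower, and between day 7 and day 14 6 members were higher at day 14.

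These directions are relative to the bulk of the genes. With total counts in place of TMM factors, the median of all tested genes at day 7 moved to 0.48 and that of the members to 0.40, 44 members were then called higher and 1 lower, and 11 of the 15 members that were lower with TMM had a positive log2 fold change. *Eef2* was called lower under both. All 15 lay below the median of all tested genes, and all 4 higher members above it, with TMM factors, DESeq2 size factors, total counts and total counts without the 20 most abundant genes. These members were picked by their calls with TMM, and another scaling moves all genes by nearly the same amount. Their side of the median was therefore largely fixed in advance. A fold change given below with TMM is thus a change relative to other genes of the tissue, and not per mg of tissue or per cell.

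**Figure D1:**
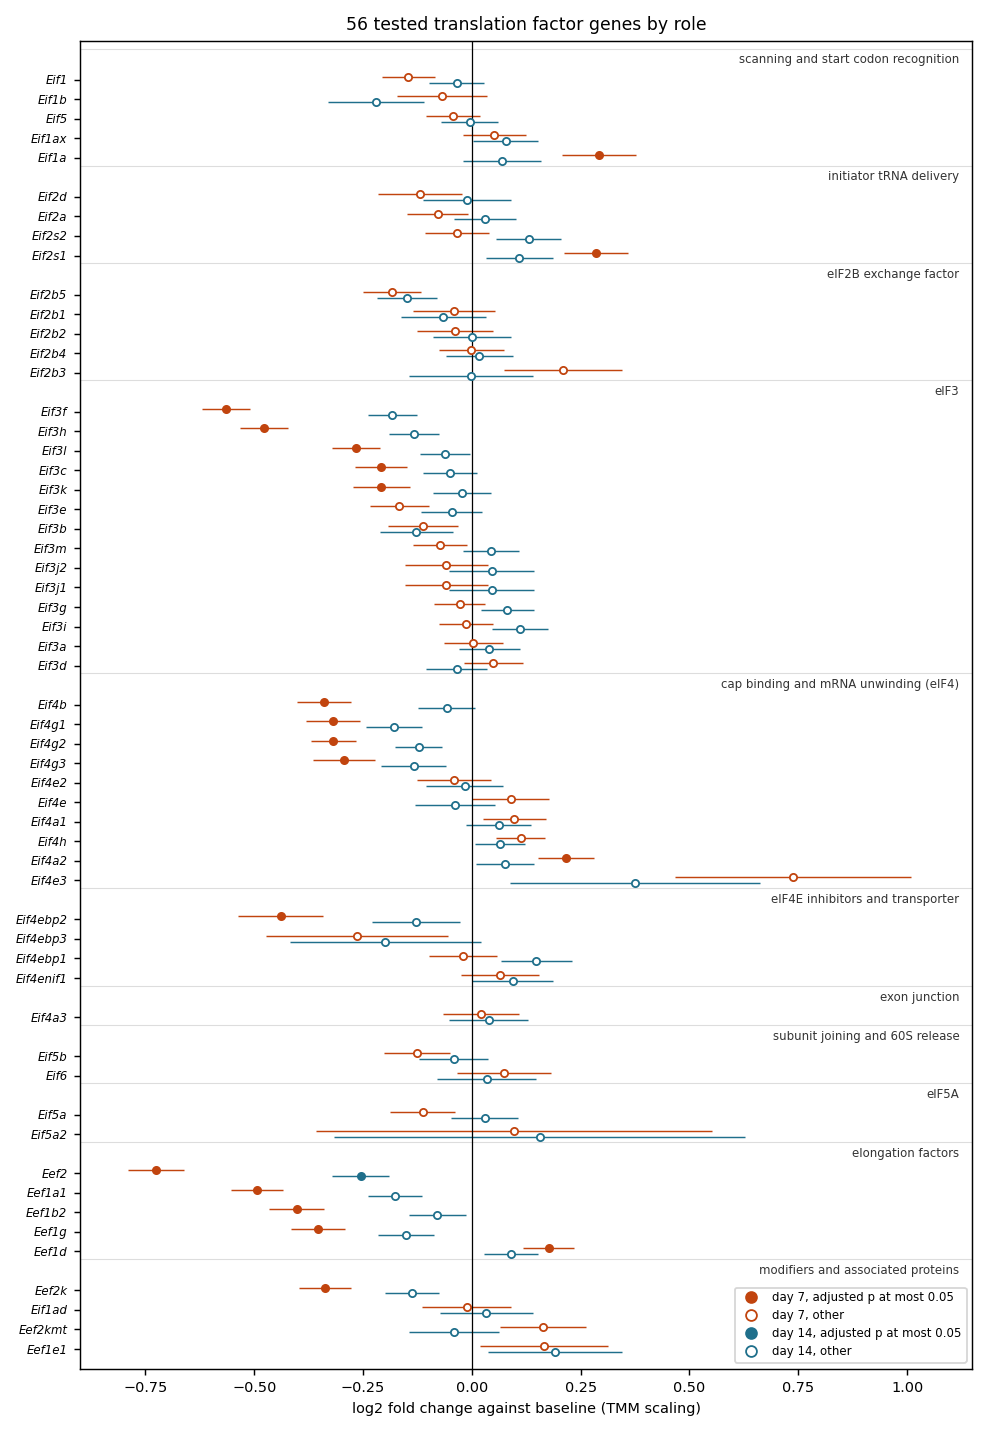
Log2 fold change of the 56 tested members at day 7 (red) and day 14 (blue) against baseline, with TMM scaling, grouped by role and ordered by the day 7 value; bars are standard errors derived from the test and filled points have an adjusted p of at most 0.05. The day 7 points of *Eef2*, *Eif3f*, *Eef1a1* and *Eif3h* lie farthest to the left, and at day 14 *Eef2* is the single filled point; with total counts the points move right and 11 of the 15 filled day 7 points on the left become positive.

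**Figure D2:**
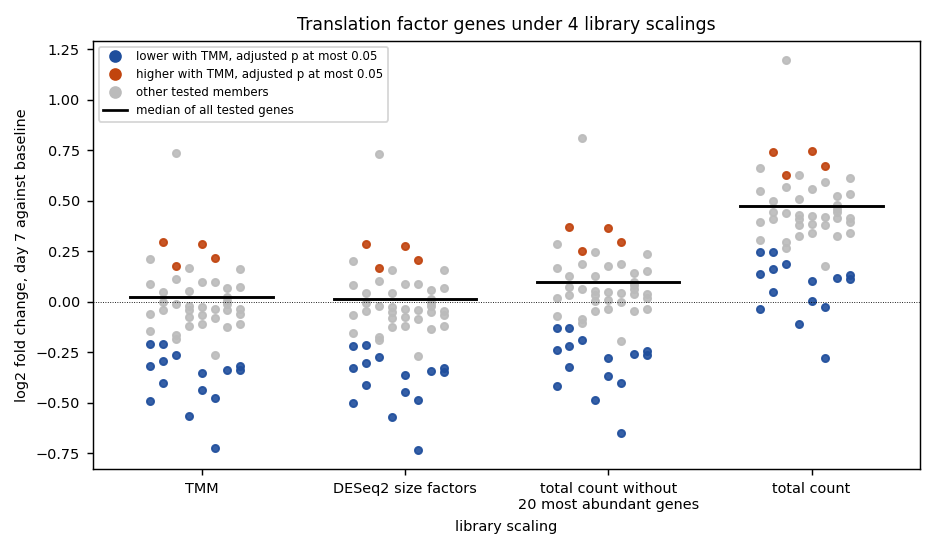
Log2 fold change at day 7 against baseline (vertical axis) of the 56 tested members under 4 library scalings (horizontal axis), with the median of all tested genes as a black line. The 15 members that were lower with TMM (blue) lie under the line and the 4 that were higher (red) over it in each scaling, while the line itself moves from 0.02 with TMM to 0.48 with total counts. Another scaling moves all points and the line by nearly the same amount, so the side was largely fixed by the choice with TMM.

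In bulk tissue, fewer cells of a type and less RNA per cell cannot be told apart. Markers of several cell types moved with these results at day 7. Of 12 acinar markers 11 were lower (median log2 fold change -0.66), 6 of 7 macrophage markers were higher (median 0.89), 6 of 7 fibroblast markers were higher (median 0.85), 4 of 7 islet markers were higher (median 0.97) and 3 of 4 red blood cell markers were higher (median 1.72). The summed share of the macrophage markers was 0.00339% to 0.0117% of counts at baseline and 0.00833% to 0.0239% at day 7, that of the fibroblast markers 0.0259% to 0.0633% and 0.0642% to 0.14%, that of the islet markers 0.0127% to 0.045% and 0.0555% to 0.141%, and that of the red blood cell markers 0.0022% to 0.00424% and 0.00326% to 0.0797%. The red blood cell share had a median of 0.00282% at baseline, 0.00577% at day 7 and 0.00681% at day 14. Its day 7 mean of 0.0162% lay well above that median, with the highest mouse at 0.0797%. Of the other lists, 2 of 7 ductal markers were higher, 1 of 5 endothelial markers was lower, and none of 4 lymphocyte or 3 adipocyte markers with enough counts was called. None of the acinar, macrophage, fibroblast, islet or red blood cell markers was at 0 in every mouse of a group. Their part in the results on translation factors was not tested.

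Of the 5 elongation factor genes tested, 4 were lower at day 7 and 1 was higher (beside 9.7% and 8.86% of all tested genes; median log2 fold change -0.40). The 4 that were lower had the highest levels per kb of exon among the members. *Eef2* (GRCm38 chr10:81176631-81182498, plus strand), the translocase, had 15336 to 17041 normalized counts at baseline (median 16325, n = 8), 8062 to 11550 at day 7 (median 9607, n = 8) and 12677 to 14935 at day 14 (median 13494, n = 7). The 3 ranges did not overlap: every day 7 mouse was below every day 14 mouse, and every day 14 mouse was below every baseline mouse. At day 7 it was 39.5% lower than at baseline (log2 fold change -0.73, SE 0.064, adjusted p = 1.45e-08, and -0.28 with total counts). Raw counts of *Eef2* at day 7 were 9606 to 12915 per mouse, so counting error was small beside the spread between mice.

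*Eef1a1* (chr9:78478449-78489151, minus strand), which encodes the carrier of aminoacyl-tRNA, had 29293 to 34337 normalized counts at baseline (median 32756), 21001 to 25588 at day 7 (median 22537) and 27170 to 30064 at day 14 (median 29014). All 8 day 7 mice were below all baseline and all day 14 mice, while day 14 and baseline overlapped. The log2 fold change at day 7 was -0.49 (SE 0.060, adjusted p = 1.95e-06), and -0.04 with total counts. Of the windows of 75 bases in its transcripts, 73.4% occur in no other annotated gene, so its count is uncertain where other genes share its sequence.

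Subunits of the exchange complex of eEF1A were called in both directions. *Eef1b2*, the catalytic eEF1B-alpha subunit (chr1:63176825-63180486, plus strand), had 2116 to 2602 normalized counts at baseline (median 2431), 1535 to 2313 at day 7 (median 1809) and 2175 to 2501 at day 14 (median 2254). At day 7, 7 of 8 mice were below every baseline mouse, and the log2 fold change was -0.40 (SE 0.063, adjusted p = 6.74e-05), but 0.05 with total counts. *Eef1g*, the eEF1B-gamma subunit (chr19:8967041-8978479, plus strand), had 1768 to 2196 at baseline (median 1979), 1407 to 1671 at day 7 (median 1579) and 1525 to 2013 at day 14 (median 1832). Its baseline and day 7 ranges did not overlap, and its log2 fold change was -0.35 (adjusted p = 2.32e-04, and 0.10 with total counts), with 62% of its windows in no other gene.

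*Eef1d*, which encodes the other exchange subunit, eEF1B-delta (chr15:75894205-75909556, minus strand), went the other way. It had 472 to 579 normalized counts at baseline (median 524) and 515 to 642 at day 7 (median 600), with 5 of 8 day 7 mice above every baseline mouse. The log2 fold change of 0.18 had an adjusted p of 0.0373, which rose above the threshold in 10 of 23 fits that each left out 1 mouse (mice 3, 5, 6 and 8 at baseline, 9, 11, 13, 14 and 16 at day 7, and 18 at day 14; highest adjusted p 0.0888) and to 0.0512 with an offset for GC content. The call was also lost with no filter on low counts and with only the mice compared. An exon of *Eef1d* overlaps one of *Naprt* on the same strand.

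Ratios of counts within a library are not moved by any scaling, and those below were chosen after the values were seen and carry no test. The ratio of *Eef1d* to *Eef1b2* was 0.184 to 0.242 in the baseline mice and 0.277 to 0.376 in the day 7 mice, and at day 14 it was 0.223 to 0.262. The baseline and day 7 ranges did not overlap. The ratio of *Eef1g* to *Eef1b2* was 0.752 to 0.935 at baseline and 0.723 to 0.975 at day 7, which overlap. The ratio of *Eef2* to *Eef1a1* was 0.46 to 0.552 at baseline and 0.378 to 0.455 at day 7, with no overlap.

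The paralogue *Eef1a2* (chr2:181147653-181157014, minus strand), which replaces *Eef1a1* in muscle and neurons, was near the limit of detection. It had 0 counts in all 8 baseline mice. A count of 0 allows up to 3 counts, or 3.14e-05% to 4.25e-05% of a library. At day 7 it had 0 to 4 counts per mouse (14 in all) and at day 14 0 to 6 (15 in all), so several mice lay at or below that floor. The low-count filter removed it, and without that filter it was called higher at day 7. The 3 skeletal muscle markers in the files took at most 0.000105% of counts at baseline and 0.000173% at day 7, and the 5 nerve markers at most 0.000395% and 0.000691%.

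*Eef2k*, the kinase that phosphorylates and inhibits eEF2, fell with its substrate (chr7:120842831-120907450, plus strand). It had 333 to 371 normalized counts at baseline (median 357), 256 to 326 at day 7 (median 275) and 292 to 360 at day 14 (median 314). Baseline and day 7 did not overlap. The log2 fold change was -0.34 (SE 0.060, adjusted p = 2.54e-04), but 0.12 with total counts. The ratio of *Eef2* to *Eef2k* was 41.6 to 49.2 at baseline and 27.6 to 42.1 at day 7, with the highest day 7 mouse inside the baseline range. *Eef2kmt*, which encodes the lysine methyltransferase of eEF2, *Eef1e1*, a member of the multi-tRNA synthetase complex, and *Eif1ad*, a nuclear eIF1A-domain protein, were not called, with log2 fold changes between -0.01 and 0.17.

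**Figure D3:**
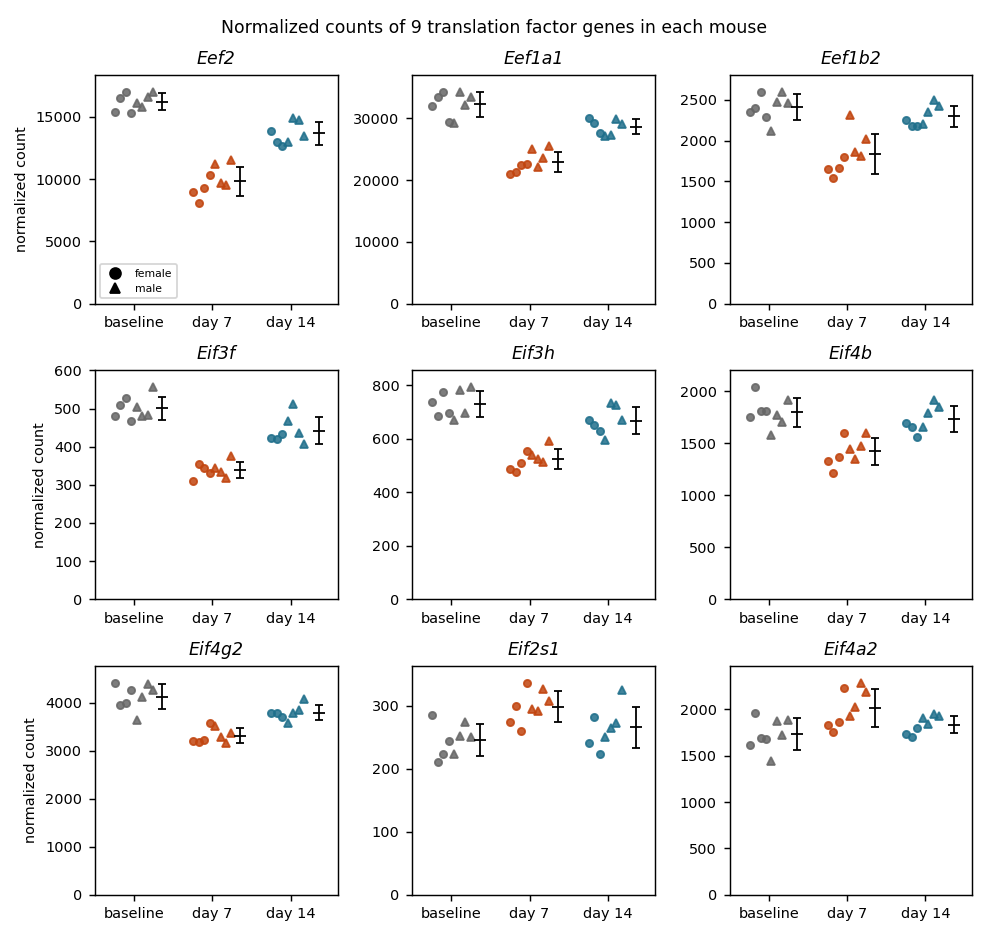
Normalized counts (vertical axes, from 0) of 9 members in each mouse at baseline, day 7 and day 14 (horizontal axes), with females as circles and males as triangles; the bar beside each group is its mean and SD. In *Eef2*, *Eef1a1*, *Eif3f* and *Eif3h* every day 7 mouse lies below every baseline and every day 14 mouse, whereas for *Eif2s1* and *Eif4a2* the groups overlap; these are TMM-scaled values, and with total counts the day 7 change of *Eef1b2*, *Eif4b* and *Eif4g2* is positive.

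eIF3, the scaffold of the small subunit, had some subunit genes that were called and others that were not. Of 14 *Eif3* genes tested, 5 were lower at day 7 and none higher (beside 9.7% and 8.86% of all tested genes), with log2 fold changes from -0.56 to 0.05 and a median of -0.09. *Eif3f* (chr7:108934417-108942951, plus strand) had 467 to 557 normalized counts at baseline (median 494), 309 to 375 at day 7 (median 339) and 407 to 511 at day 14 (median 432). All day 7 mice were below all others. It was 32.4% lower at day 7 (log2 fold change -0.56, SE 0.054, adjusted p = 6.21e-08, and -0.11 with total counts).

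*Eif3h* (chr15:51786558-51865523, minus strand), which pairs with *Eif3f* in the part of the complex built of MPN-domain subunits, had 671 to 794 at baseline (median 718), 475 to 593 at day 7 (median 519) and 597 to 735 at day 14 (median 670). Day 7 again lay below baseline without overlap, and below day 14 as well. The log2 fold change was -0.48 (SE 0.055, adjusted p = 9.28e-07), and -0.02 with total counts.

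*Eif3l* (chr15:79075179-79094405, plus strand) had 490 to 562 at baseline (median 515), 389 to 475 at day 7 (median 427) and 439 to 554 at day 14 (median 495). Its baseline and day 7 ranges did not overlap (log2 fold change -0.27, adjusted p = 0.00115). *Eif3c*, a core subunit, was lower by -0.21 (adjusted p = 0.0137) and *Eif3k*, the partner of *Eif3l*, also by -0.21 (adjusted p = 0.0241). The call of *Eif3k* was kept in 21 of 23 fits that left out 1 mouse. It was lost without baseline mouse 8 or day 7 mouse 14 (highest adjusted p 0.0634) and with the GC offset (adjusted p = 0.075). It was also lost with no filter on low counts and with total counts without the 20 most abundant genes. With total counts *Eif3l*, *Eif3c* and *Eif3k* had positive log2 fold changes of 0.19, 0.24 and 0.24.

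The largest subunit gene, *Eif3a*, had a log2 fold change of 0.004 at day 7 (SE 0.068, adjusted p = 0.98) and *Eif3m* one of -0.07 (adjusted p = 0.433). The count ratio of *Eif3h* to *Eif3a* was 0.287 to 0.39 at baseline and 0.218 to 0.253 at day 7, and that of *Eif3h* to *Eif3m* 0.922 to 1.14 and 0.702 to 0.83, neither with overlap. The ratio of *Eif3f* to *Eif3a* was 0.178 to 0.265 and 0.134 to 0.185, and that of *Eif3f* to *Eif3m* 0.566 to 0.855 and 0.433 to 0.618, both with overlap. *Eif3j1* and *Eif3j2* had the same counts in every mouse, for which the cause was not tested (52.7% and 12.6% of their windows occur in no other gene). Their log2 fold change of -0.06 is a single measurement.

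Of the 10 genes tested for cap binding and mRNA unwinding, 4 were lower at day 7 and 1 was higher (beside 9.7% and 8.86% of all tested genes). Their median log2 fold change was 0.02. All 3 eIF4G genes were among the 4 that were lower. *Eif4g1*, the main scaffold (chr16:20668313-20692884, plus strand), had 2919 to 3362 normalized counts at baseline (median 3176), 2099 to 2710 at day 7 (median 2639) and 2409 to 3043 at day 14 (median 2868). Its baseline and day 7 ranges did not overlap (log2 fold change -0.32, SE 0.062, adjusted p = 6.28e-04). *Eif4g2*, a homologue that lacks the binding site for eIF4E (chr7:111067750-111083030, minus strand), had 3634 to 4423 at baseline (median 4191), 3158 to 3580 at day 7 (median 3254) and 3579 to 4081 at day 14 (median 3793). These day 7 mice too were all below baseline (log2 fold change -0.32, SE 0.052, adjusted p = 1.14e-04).

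*Eif4g3* (chr4:137993022-138208508, plus strand) had fewer counts, with 208 to 281 at baseline (median 258), 178 to 247 at day 7 (median 200) and 209 to 245 at day 14 (median 228). Its groups overlapped, and its log2 fold change was -0.29 (adjusted p = 0.00436). With total counts the 3 genes had log2 fold changes of 0.13, 0.14 and 0.16. The count ratio of *Eif4g1* to *Eif4a1* was 2.88 to 3.92 at baseline and 2.19 to 2.85 at day 7, with no overlap.

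*Eif4b* (chr15:102073773-102097173, plus strand), a cofactor of the helicase eIF4A, had 1577 to 2041 at baseline (median 1792), 1217 to 1601 at day 7 (median 1408) and 1561 to 1916 at day 14 (median 1695). At day 7, 6 of 8 mice were below every baseline mouse (log2 fold change -0.34, SE 0.063, adjusted p = 4.11e-04, and 0.11 with total counts). The other cofactor gene, *Eif4h*, had a log2 fold change of 0.11 (adjusted p = 0.166).

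eIF4A, the helicase, has a pair of genes, and the difference between their changes was not tested. *Eif4a1* (chr11:69666936-69672423, minus strand) had 815 to 1116 normalized counts at baseline (median 894), 933 to 1090 at day 7 (median 1033) and 901 to 1177 at day 14 (median 1017), with a log2 fold change at day 7 of 0.10 (SE 0.072, adjusted p = 0.366). *Eif4a2* (chr16:23107444-23114136, plus strand) had 1438 to 1963 at baseline (median 1706), 1752 to 2287 at day 7 (median 1978) and 1700 to 1946 at day 14 (median 1840), with a log2 fold change of 0.22 (SE 0.064, adjusted p = 0.0179). The groups overlapped in both. The ratio of *Eif4a2* to *Eif4a1* was 1.45 to 2.41 at baseline and 1.66 to 2.45 at day 7. With the GC offset the value for *Eif4a2* was 0.08 (adjusted p = 0.356).

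*Eif4e*, the cap-binding protein, and *Eif4e2*, its repressive homologue, were not called (log2 fold changes 0.09 and -0.04). *Eif4e3*, a further homologue, had the highest log2 fold change of the members, 0.74 (SE 0.27), but at 3.02 to 22.5 normalized counts at baseline and 11.4 to 33.8 at day 7 its adjusted p was 0.0568. *Eif4a3*, a helicase of the exon junction complex and not of initiation, stood at 0.02.

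The inhibitors of eIF4E also differed. *Eif4ebp2* (chr10:61428491-61452661, minus strand) had 116 to 196 normalized counts at baseline (median 157), 87.6 to 134 at day 7 (median 121) and 124 to 170 at day 14 (median 149). The groups overlapped (log2 fold change -0.44, SE 0.098, adjusted p = 0.00231, and 0.004 with total counts). *Eif4ebp1* (chr8:27260329-27276674, plus strand), the paralogue best known as a target of mTOR complex 1, had 277 to 354 at baseline (median 347), 238 to 392 at day 7 (median 323) and 307 to 419 at day 14 (median 357), with a log2 fold change of -0.02 (adjusted p = 0.887). *Eif4ebp3* had 12.1 to 36.7, 17.2 to 31.9 and 13.4 to 32.6 normalized counts in the 3 groups (medians 28.9, 21.7 and 20.5), and its log2 fold change of -0.26 had an SE of 0.21. *Eif4enif1*, the transporter of eIF4E, was not called (0.07).

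Of the start codon factors, *Eif1a* was higher at day 7. It had 238 to 343 normalized counts at baseline (median 309), 303 to 431 at day 7 (median 376) and 274 to 387 at day 14 (median 307). At day 7, 6 of 8 mice were above every baseline mouse (log2 fold change 0.29, SE 0.086, adjusted p = 0.0163). Its X-linked paralogue *Eif1ax* (chrX:159372178-159389928, plus strand) had 239 to 346, 262 to 349 and 266 to 326 (medians 285, 296 and 318), with a log2 fold change of 0.05 (adjusted p = 0.662). *Eif1*, *Eif1b* and *Eif5* were not called (-0.15, -0.07 and -0.04).

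Of the factors that deliver the initiator tRNA, *Eif2s1* (chr12:78861819-78887010, plus strand) encodes the alpha subunit of eIF2, whose phosphorylation halts most initiation. It had 210 to 285 normalized counts at baseline (median 247), 259 to 337 at day 7 (median 297) and 224 to 325 at day 14 (median 265), with 6 of 8 day 7 mice above every baseline mouse. The log2 fold change was 0.29 (SE 0.073, adjusted p = 0.00653). The beta subunit gene, *Eif2s2*, had one of -0.03 (adjusted p = 0.783), and the count ratio of *Eif2s1* to *Eif2s2* was 0.278 to 0.339 at baseline and 0.329 to 0.476 at day 7.

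The calls of *Eif1a*, *Eif2s1*, *Eif4a2* and *Eef1d* share a limit. With the offset for GC content their log2 fold changes were 0.16, 0.17, 0.08 and 0.16, and none of these passed (adjusted p = 0.187, 0.0907, 0.356 and 0.0512).

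None of the 5 genes of eIF2B, the exchange factor that reloads eIF2 with GTP, was called at day 7 (log2 fold changes -0.18 to 0.21, smallest adjusted p 0.0553 for *Eif2b5*; DESeq2 called *Eif2b5*). The same held for *Eif2a* and *Eif2d*, which encode alternative carriers of the initiator tRNA (-0.08 and -0.12), and for *Eif5b* and *Eif6*, which act at subunit joining and on the free large subunit (-0.13 and 0.07). *Eif5a*, whose hypusine-bearing product helps the ribosome through difficult peptides, had 1079 to 1509 normalized counts at baseline (median 1306), 1022 to 1399 at day 7 (median 1245) and 1203 to 1610 at day 14 (median 1370), with a log2 fold change of -0.11 (adjusted p = 0.307). Its paralogue *Eif5a2* had 2.52 to 22.5, 2.87 to 24.7 and 3.84 to 21.5 (medians 8.23, 8.49 and 11.7), and an SE of 0.45. In simulated counts with the real library sizes, 52% of genes changed by 1.3-fold and 76% of those changed by 1.5-fold were called at day 7. The changed genes were drawn from all tested genes but the least abundant, so these shares are not those of the members. A miss still does not show that a gene of this group was unchanged.

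Counted without overlap, 9 of the 56 members had every day 7 mouse below every baseline mouse: *Eef1a1*, *Eef1g*, *Eef2*, *Eef2k*, *Eif3f*, *Eif3h*, *Eif3l*, *Eif4g1* and *Eif4g2*. Over all tested genes 1.59% did so. For none of the members was every day 7 mouse above every baseline mouse, beside 1.16% of all tested genes. These counts too rest on TMM scaling.

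Levels between genes were compared per kb of annotated exon. At baseline *Eef1a1* had 12951 normalized counts per kb and *Eef2* 4881, followed by *Eef1b2* at 952, *Eef1g* at 764 and *Eif5a* at 561. *Eef1a1* was 2.65 times as high as *Eef2*, and *Eef2* 5.13 times as high as *Eef1b2*, which are gaps far wider than the SDs between mice (4.08% of the mean for *Eef2*, 6.25% for *Eef1a1* and 6.75% for *Eef1b2*). Of the 55 pairs of neighbours in this order, the baseline mice overlapped in 52; the pairs without overlap were *Eef1a1* and *Eef2*, *Eef2* and *Eef1b2*, and *Eef1g* and *Eif5a*. Among the paralogues, *Eif4g1* and *Eif4g2* stood at 434 and 406 and *Eif4g3* at 22.9, *Eif4a2* at 325 and *Eif4a1* at 220, *Eif1a* at 73 and *Eif1ax* at 55, and *Eif4ebp1* at 150 with *Eif4ebp3* at 35.7 and *Eif4ebp2* at 27.8. *Eif5a2* was lowest at 2.19. The length used is that of all annotated exons of a gene together, and the spread between mice does not measure error in it. Of the windows of 75 bases, 91.7% in *Eif4a2*, 74.6% in *Eif4a1*, 35.8% in *Eif4ebp3* and 100% in *Eif4ebp2* occur in no other gene. The order of such paralogues is therefore uncertain. The coefficient of variation between baseline mice ranged from 3.68% in *Eef2k* to 71.8% in *Eif5a2*, with a median of 10.4%.

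**Figure D4:**
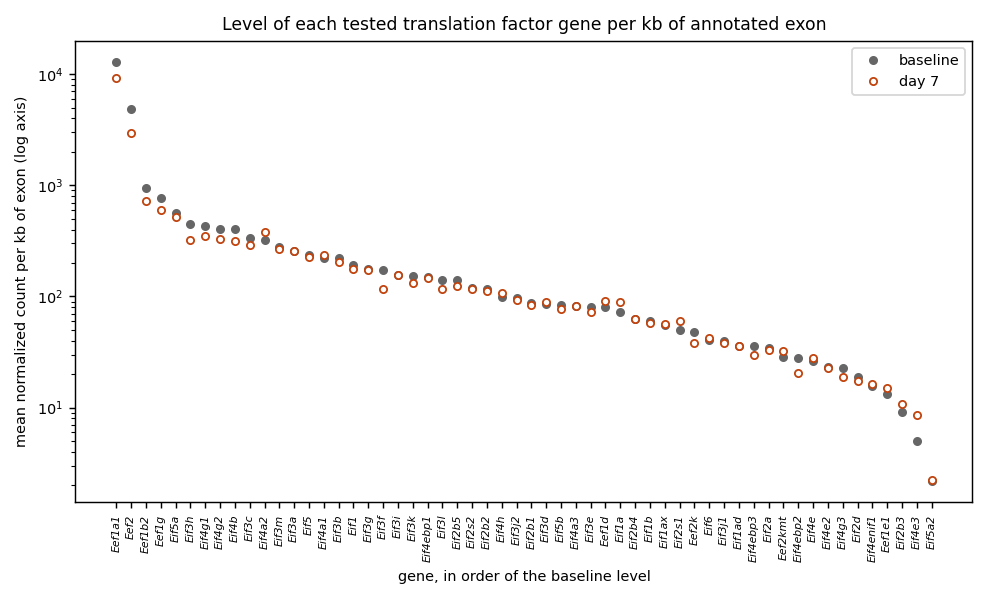
Mean normalized count per kb of annotated exon (log axis) of each tested member at baseline (filled) and at day 7 (open), in order of the baseline level; *Eif3j1* and *Eif3j2* hold the same counts over different lengths. *Eef1a1* and *Eef2* stand above all others in both groups, and 4 of the first 5 genes are elongation factors.

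By raw counts the members took 0.779% to 0.906% of a library at baseline (median 0.824%), 0.791% to 0.942% at day 7 (median 0.897%) and 0.855% to 0.917% at day 14 (median 0.882%). The 6 elongation factor genes took 0.488% to 0.569%, 0.439% to 0.528% and 0.524% to 0.56%. The ranges of the groups overlapped in both. A share depends on the rest of the library, and the share of the acinar markers was lower at day 7 in the values above.

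At day 14, 9 members had an unadjusted p under 0.05 against baseline and 1 was called. No member was called higher (beside 1.05% of all tested genes) and *Eef2* was called lower (1 of 56, beside 0.525%). With total counts 22 members were called higher at day 14 and none lower. The log2 fold change of *Eef2* was -0.26 (SE 0.066, adjusted p = 0.0437), and all 7 day 14 mice were below every baseline mouse. How many of all tested genes did so at day 14 was not counted. This call was narrow: it held in 5 of the 23 fits that left out 1 mouse, those without mouse 5 or 6 at baseline, 10 or 16 at day 7, or 22 at day 14, and the adjusted p ranged from 0.0315 to 0.106. It was lost with total counts (log2 fold change -0.04, adjusted p = 0.582), with the GC offset, with no covariate for sex and with no filter on low counts. At day 14, 6 of 12 acinar markers were lower than at baseline (median log2 fold change -0.30) and 2 of 7 fibroblast markers were higher (median 0.44), and their part in this result was not tested. DESeq2 called 3 members lower at day 14, *Eef1a1* and *Eif3f* with *Eef2*. With edgeR the log2 fold change was -0.18 for both (adjusted p = 0.103 for *Eif3f* and 0.167 for *Eef1a1*).

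Day 14 was also compared with day 7 directly. The members called higher at day 14 were *Eef2* (log2 fold change 0.47, adjusted p = 1.67e-04), *Eif3f* (0.38, adjusted p = 2.30e-04), *Eif3h* (0.35, adjusted p = 0.00102), *Eef1a1* (0.32, adjusted p = 0.00541), *Eef1b2* (0.32, adjusted p = 0.00695) and *Eif4b* (0.28, adjusted p = 0.0238). These 6 are 10.7% of the members, where 1.01% of all tested genes were called higher. No member was called lower at day 14 than at day 7 (beside 0.279%), by edgeR or by DESeq2, and 20 members had an unadjusted p under 0.05. All 6 were among the members lower at day 7, but the comparisons share the day 7 mice. In *Eef2*, *Eef1a1*, *Eif3f* and *Eif3h* all 7 day 14 mice were above every day 7 mouse. The share of all tested genes that did so was not counted, so this separation cannot be set against a background. The call of *Eif4b* was lost without mouse 14 at day 7 and without mouse 22, 23 or 24 at day 14. With total counts 1 member, *Eef2*, was higher at day 14 and 19 were lower. Between day 7 and day 14, 4 of 12 acinar markers were higher (median log2 fold change 0.33, all 12 positive) and 1 of 5 endothelial markers was higher, while none of 7 macrophage markers was called (median -0.65, all 7 negative). Their part in these results was not tested either, nor was that of the differences between day 14 and day 7 libraries given above.

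Between the sexes 1 member was called. *Eif3c* was higher in males (log2 fold change 0.21, SE 0.050, adjusted p = 0.0466), 1 of 56 members beside 0.279% of all tested genes, and no member was higher in females (beside 0.295%). Its normalized counts at baseline were 985 to 1174 in 4 females and 1151 to 1358 in 4 males. At day 7 they were 873 to 1056 and 991 to 1137, and at day 14 983 to 1106 and 1032 to 1343, so the sexes overlapped at each time. The call held in 5 of 23 fits that left out 1 mouse (without mouse 1 or 5 at baseline, 11 or 15 at day 7, or 21 at day 14; adjusted p 0.0169 to 0.101). It was lost with total counts (log2 fold change 0.14, adjusted p = 0.0785) and with no filter on low counts. Of the 7 fibroblast markers 1 was lower in males. In edgeR's joint test of both days, no interaction of sex with time was called for any of the 56 members or any of the 12195 genes tested. In that test 1 member, *Eif4enif1*, had an unadjusted p under 0.05. For day 7 alone 2 members did (*Eif2a* and *Eef1b2*), and for day 14 alone 2 (*Eif4h* and *Eif4e*), and none was called.

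Promoters of 44 of the 57 members are in the RefSeq table of 250 bases before to 50 after the annotated start (GRCm38.p6). The 13 others are *Eef1d*, *Eef1g*, *Eif1a*, *Eif2b3*, *Eif3e*, *Eif3h*, *Eif3i*, *Eif3j2*, *Eif4e3*, *Eif4ebp1*, *Eif4ebp3*, *Eif4g2* and *Eif6*. Many mRNAs of the translation machinery are known to begin with a 5′ terminal oligopyrimidine tract, a C followed by pyrimidines, through which mTOR complex 1 governs their translation. At the annotated start such a tract (C and at least 4 more of C or T) was present in 1 of 44 members (2.27%), in 22.6% of 62 cytosolic ribosomal protein genes and in 3.18% of the tested genes in the table. The search read only from the annotated first base, so a tract that starts at another base was missed. A gene without a match may still have the tract. The member was *Eif3f*, shown because it had the second largest fall, with the tract in capitals:
*Eif3f* start (chr7:108934405-108934434, plus strand): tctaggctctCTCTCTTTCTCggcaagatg

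The E-box CACGTG, which reads the same on both strands and is bound by MYC and related proteins, was in 12 of 44 members (27.3%), beside 12.1% of 9210 tested genes and 8.09% of all 27025 genes in the table. It was in 5 of 12 members that were lower at day 7, in neither of the 2 that were higher, and in 7 of 29 other tested members. The windows of those 5 members are shown in gene orientation with the E-box in capitals, and *Eif4g1* has a pair of them. The first capital lies 43 bases before the start in *Eef2*, 68 in *Eif3f*, 44 in *Eif3k*, 31 in *Eef2k* and 54 in the upstream box of *Eif4g1*, and the downstream box of *Eif4g1* begins at base 16 after it:
*Eef2* (chr10:81176576-81176605, plus strand): acccggcgccgtCACGTGacgcacccaacc
*Eif3f* (chr7:108934335-108934364, plus strand): caagatatgattCACGTGgtataaatttag
*Eif3k* (chr7:28981915-28981944, minus strand): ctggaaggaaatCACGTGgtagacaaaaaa
*Eef2k* (chr7:120842788-120842817, plus strand): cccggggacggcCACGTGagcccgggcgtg
*Eif4g1*, upstream (chr16:20672661-20672690, plus strand): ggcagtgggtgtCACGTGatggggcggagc
*Eif4g1*, downstream (chr16:20672730-20672759, plus strand): ctctgcgccggtCACGTGgggcgctggctg

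The ETS core CCGGAAG on either strand was in 16 of 44 members (36.4%), beside 20.1% of the tested genes and 40.3% of 62 ribosomal protein genes. It was in 4 of 12 members lower at day 7 and in 12 of 29 others. The windows of 3 of the lower members, with the core in capitals as it reads in gene orientation, are:
*Eef1b2* (chr1:63176821-63176850, plus strand): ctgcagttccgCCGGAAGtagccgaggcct
*Eif3l* (chr15:79075177-79075206, plus strand): gctgggcgggaCTTCCGGtccggccaagca
*Eif4ebp2* (chr10:61452775-61452804, minus strand): gccttcgaccgCTTCCGGtagtcatcgttg

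The response element TGATGNAAN, on either strand, was in 1 member, *Eef2k*, beside 2.74% of the tested genes. Over all tested genes the median log2 fold change at day 7, given with no test, was 0.05 with and 0.02 without the pyrimidine start (293 and 8917 genes), 0.009 with and 0.02 without the E-box (1113 and 8097), and 0.01 with and 0.02 without the ETS core (1853 and 7357). Among the members it was -0.09 with the E-box (12) and -0.04 without (31). A match is a description of the letters in these windows.

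Several members carry small nucleolar RNAs (snoRNAs, guides of RNA modification) in their genes, and 7 of these are in the files. *Snora41*, within *Eef1b2*, had 71.7 to 128 normalized counts at baseline (median 108), 181 to 280 at day 7 (median 212) and 148 to 276 at day 14 (median 234), with a log2 fold change at day 7 of 1.04 (SE 0.12, adjusted p = 2.22e-06). Its host was lower at that time. At day 14 the value for *Snora41* was 1.10 (adjusted p = 2.20e-05) and for *Eef1b2* -0.08 (adjusted p = 0.666). The authors' own RNA-seq analysis also listed *Snora41* as higher on both days. By RT-qPCR they were unable to establish the change of the snoRNAs they assayed, *Snora41* among them. They describe such assays as technically difficult, and they read a change from the sequencing coverage, which they say is no test of significance. *Snora81*, within *Eif4a2*, was higher at day 7 as was its host (0.37, adjusted p = 0.00191), but it lies in an exon of a host transcript and may share reads with it. *Snord2* in *Eif4a2* and *Snora28* in *Eif5* were not called (0.20 and 0.23). *Snord37* in *Eef2*, *Snora19* in *Eif3a* and *Snord66* in *Eif4g1* had too few counts to be tested.

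The other genes of the pathway came from a list of 40 regulators and partners, all tested. At day 7, 8 were lower and 1 higher (beside 9.7% and 8.86% of all tested genes), with a median log2 fold change of -0.08 with TMM scaling. The values for these partners, ribosomal proteins and synthetases are all relative to the bulk of the genes. Signalling to eIF4E by mTOR and the MNK kinases gave 4 of the 8: *Tsc2*, which encodes an inhibitor of the pathway, was lower by -0.44 (adjusted p = 7.02e-05), *Mtor*, the kinase itself, by -0.32 (adjusted p = 1.99e-04), *Rptor*, the scaffold of mTOR complex 1, by -0.30 (adjusted p = 0.0038) and *Rheb*, its activating GTPase, by -0.23 (adjusted p = 0.0409). At day 14 *Mtor* was still lower (-0.22, adjusted p = 0.0459). Activators and an inhibitor of the pathway were thus among the genes that fell.

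Of the 4 eIF2 kinases, *Eif2ak4* (GCN2, which senses uncharged tRNA) was lower by -0.32 (adjusted p = 0.0107) and *Eif2ak1* (the haem-regulated kinase) by -0.24 (adjusted p = 0.025). *Eif2ak3* (PERK, the kinase of the endoplasmic reticulum) was not called (-0.17, adjusted p = 0.139), nor was *Eif2ak2* (PKR, 0.36, adjusted p = 0.0677). Of the genes for poly(A) binding, *Pabpc1* and *Pabpc4* were lower (-0.22 and -0.46, adjusted p = 0.0295 and 0.0131) and *Paip2*, an inhibitor of the poly(A)-binding protein, was higher (0.24, adjusted p = 0.0155). None of the 6 genes that build diphthamide on eEF2 was called (0.09 to 0.35, all positive), nor were *Dhps* and *Dohh*, which make hypusine on eIF5A, *Pdcd4*, an inhibitor of eIF4A, the 4 genes of re-initiation and recycling or the 3 of termination.

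Beside the factors stand the other parts of the translation machinery. Of 82 tested cytosolic ribosomal protein genes 37 were lower at day 7 and 1 higher (beside 9.7% and 8.86% of all tested genes), with a median log2 fold change of -0.14. Between day 7 and day 14, 25 of the 82 were higher and none lower (beside 1.01% and 0.279% of all tested genes), with a median of 0.19 (the factors had 0.07). These calls rest on TMM scaling, and shares of raw counts moved otherwise. All 84 such genes in the files had a median share of 1.58% in baseline libraries (highest mouse 1.68%). The day 7 median was 1.93% (lowest mouse 1.75%), and the day 14 median was 1.87% (lowest mouse 1.84%). By share, every day 7 mouse thus stood above every baseline mouse, and the day 14 median was not above that of day 7. A share depends on the rest of the library. Of 20 cytosolic aminoacyl-tRNA synthetases 1 was lower and 1 higher at day 7 (beside the same 9.7% and 8.86%), with a median of -0.03. The difference between these lists and the factors was not tested.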

How the data were processed

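The authors sequenced total RNA of the pancreatic head as paired 75-base reads after ribosomal RNA depletion with a stranded kit. Per the labels, reads were examined with FastQC, trimmed with Trim Galore and cutadapt, aligned to mm10 with STAR 2.5.2a and counted with featureCounts. The deposited values are counts of uniquely mapped read fragments per gene symbol; the strand setting and the annotation used for counting are not given in the sources used here, so overlapping genes on opposite strands may share reads. The 23 libraries are those the authors kept; they left out mouse 20, a day 14 female, for its low share of mapped reads, and it is not analysed here.

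The quasi-likelihood test of edgeR 4.0.16 was run in R 4.3.3 (limma 3.58.1) with TMM factors, filterByExpr over time points (12195 genes kept) and a robust fit of all 23 mice, with time point and sex as terms. P-values are two-sided and Benjamini-Hochberg adjusted over all genes tested. The interaction came from a fit with 6 groups of sex and time point. The SE was taken from the size of the log2 fold change over the root of F, so it restates the test. A gene was called when its adjusted p did not exceed 0.05, and calls that also reached a 1.5-fold change were counted. The sources name 1 library per mouse, and p-values measure the spread between mice.

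Alternatives were DESeq2 1.42.0, other scalings and filters, no covariate, only the mice compared, a GC offset (96.3% of tested genes had a value) and leaving out each mouse. The procedure was tested on simulated data with 200 changed genes. Positions, exon lengths and uniqueness (windows of 75 bases searched for in all other transcripts) are from GENCODE vM21 on GRCm38, which matched 17724 of 18512 symbols and all 57 members. Promoters are from RefSeq, GRCm38.p6. A count of 0 was taken to allow 3 counts, which covers counting error only. Tables and plots were made in Python 3.11.15 (pandas 2.3.3, numpy 2.4.6, matplotlib 3.10.9).

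The members and all lists were chosen with earlier results of these data known. Values per mouse are given for members past a fold change of 1.5, then for further members by their p at day 7 until 12 were reached, for the 3 with the smallest p at day 14 against baseline and against day 7, and for fixed paralogue groups. Values per mouse of *Eef1d*, *Eif2s1*, *Eif4e3* and *Eif3c*, and the ratios, were added after the values were seen.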

Additional observations from a re-analysis of the deposited data

Results flagged for a closer look

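Of 65 groups of values examined for the 22 members named by rule, 1 held a mouse that stood apart by Dixon's test at the 95% level, where chance alone gives about 1 in 20 groups. It was *Eif4g3* at baseline, where mouse 6 had 208 normalized counts, the nearest of the other 7 mice had 247 and the highest 281. Without this mouse *Eif4g3* was called lower at day 7 as before. No interaction of sex with time passed the threshold for any member.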

How the results depend on the processing

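The count of 19 members called at day 7 was 18 to 20 with DESeq2, DESeq2 size factors, total counts without the 20 most abundant genes, either other filter, no covariate, the GC offset and only the mice compared, and 17 to 21 when 1 mouse was left out. The split of 4 higher and 15 lower was 7 and 13 with total counts without the 20 most abundant genes (17 of the 19 shared) and 1 and 17 with the GC offset (14 shared). The count was 45 with total counts (44 higher, 1 lower) and 1 when a fold change of 1.5 was also asked. Of the 19, 17 were called in every fit that left out 1 mouse. The count of 1 at day 14 was 3 with DESeq2, 22 with total counts (all higher, *Eef2* lost) and 0 with no filter, no covariate, the GC offset or the 1.5-fold rule, and 0 to 2 when 1 mouse was left out. The count of 6 between day 14 and day 7 was 10 with DESeq2, 20 with total counts, 0 with the 1.5-fold rule and 5 to 7 when 1 mouse was left out. The count of 1 between the sexes was 0 with total counts, no filter or the 1.5-fold rule, and 0 to 1 when 1 mouse was left out. The median log2 fold change of the members was 0.40 at day 7 and 0.20 at day 14 with total counts, 0.027 at day 7 with total counts without the 20 most abundant genes, and -0.0877 to -0.0318 at day 7 and -0.0301 to 0.017 at day 14 when 1 mouse was left out.

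With total counts the day 7 log2 fold change turned positive for 11 of the 15 lower members, namely *Eef1b2* (0.050), *Eif4g2* (0.14), *Eef1g* (0.10), *Eef2k* (0.12), *Eif4b* (0.11), *Eif4g1* (0.13), *Eif3l* (0.19), *Eif4ebp2* (0.0039), *Eif3c* (0.24), *Eif3k* (0.24) and *Eif4g3* (0.16), and for *Eif5a* (0.34) and *Eif4ebp1* (0.43), which were not called with TMM. *Eif4g3* (-0.22) and *Eif3k* were not called with total counts without the 20 most abundant genes. With total counts the median of all tested genes at day 7 moved from 0.02 to 0.48. The median of the members less that of all genes was -0.0734 with TMM and -0.0737 with total counts. The sign changes with total counts thus go with a shift of nearly all genes. Why the libraries differed in composition was not tested. The prior count was not varied, since no log2 CPM is reported. No paired analysis was possible because each mouse number occurs at 1 time point.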
